A study of Homo sapiens with 15 samples.

Results

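FOXA1 binding was compared between cells that had been induced to make the C258A form of FOXA1 and cells induced to make the wild-type (WT) form, neither with a stereoprobe. The comparison rests on 2 of the 15 samples of the series, chosen by their labels: 1 FOXA1 chromatin immunoprecipitation sequencing (ChIP-seq) library per form, each with its own deposited peak list. The C258A list held 13299 peaks and the WT list 31735. Both libraries came from 22Rv1, an established human prostate carcinoma cell line. Both lines stably expressed the Y36C form of the splicing factor subunit PHF5A, carried a doxycycline-inducible FOXA1 transgene, and received doxycycline, and 0.1% DMSO for 3 h. The labels give neither the dose nor the duration of doxycycline, and they do not say whether each line was a clone.

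Further lists served as references. Uninduced cells of each line, labelled noDox and treated with DMSO, gave 8575 peaks in the WT line and 12752 in the C258A line. Parental 22Rv1 cells, with neither transgene, gave 30557 peaks with DMSO. The 5 other parental lists and the lists of both induced lines with the stereoprobe WX-02-23 at 20 µM were used for look-up. Each condition had 1 library, so no difference below has a replicate check and no test between conditions was made. Read totals were not analysed here, so a longer list may come from deeper sequencing or better enrichment as well as from more binding.

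FOXA1 is a forkhead transcription factor. Its winged-helix domain binds DNA that is still wrapped in nucleosomes, which is why it is called a pioneer factor, and in prostate cells it opens sites that the androgen receptor then uses. The C258A change replaces a cysteine of that domain with alanine, which lacks the thiol that a covalent compound can react with. The comparison without compound shows how the lists of the mutant and wild-type lines differed before WX-02-23 was added. The antibody was against FOXA1 itself, and both lines started from cells that bind FOXA1 without induction, so each induced list can hold sites of the endogenous and of the induced protein.

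Nearly all C258A peaks lay at WT peaks, while most WT peaks had no C258A partner. An overlap of at least 1 bp was counted as shared. Of the 13299 C258A peaks, 12449 (93.6%, 95% interval 93.2 to 94.0%) overlapped a WT peak, and 850 did not. Of the 31735 WT peaks, 12318 (38.8%, 38.3 to 39.4%) overlapped a C258A peak, and 19417 did not. Peaks without a partner in the other list are called private here. Intervals are Wilson binomial intervals, limited to counting error and computed as if peaks were independent of each other. The WT list covered 21.3 Mb of the genome and the C258A list 7.42 Mb.

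Shared peaks usually matched one to one. A total of 12174 pairs consisted of 1 WT and 1 C258A peak, 135 WT peaks held 2 or more C258A peaks, and 6 C258A peaks spanned 2 or more WT peaks. The midpoints of paired peaks lay a median of 37.5 bp apart, and in 90% of pairs they lay within 106 bp. The C258A peak was the narrower one in 93.8% of pairs, with a median width of 540 bp against 725 bp for its WT partner. Paired peaks thus lay at nearly the same positions, with a narrower call in the C258A library.

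Whether a WT peak was shared followed its score, a deposited value that ranks peaks within a list. Each list was split by score into 10 deciles, the first with the highest scores. In the first decile of WT peaks, 95.9% (95.2 to 96.5%) had a C258A peak. The share was 81.7% in the second decile, 62.0% in the third and 32.7% in the fifth. It ended at 5.86% (5.10 to 6.73%) in the lowest decile. Shared WT peaks had a median score of 369 and private ones 145. In the C258A list the corresponding medians were 172 and 109. The share of C258A peaks with a WT peak fell less steeply, from 99.8% in each of the 2 highest deciles to 81.3% (79.2 to 83.3%) in the lowest.

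**Figure D1:**
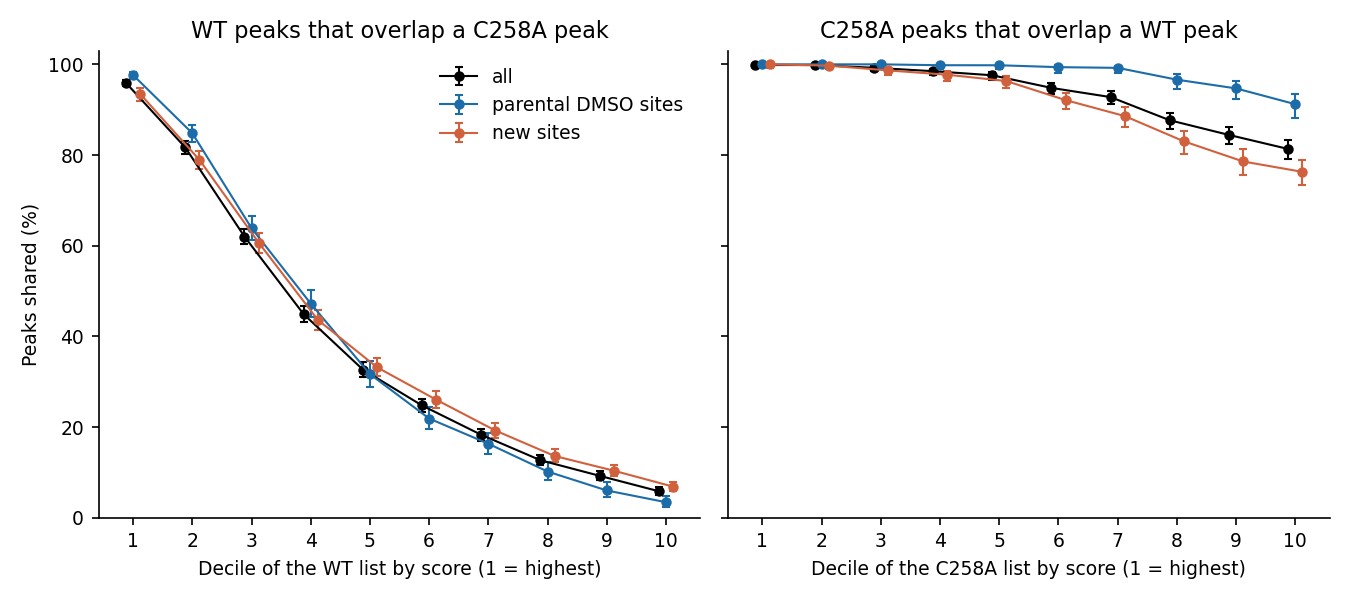
Share of peaks (%) that overlap a peak of the other list, by decile of the list by score, with 1 the highest, for WT peaks on the left and C258A peaks on the right. Points are shares with Wilson 95% intervals for all peaks, for peaks at parental DMSO sites and for new sites. WT shares run from 95.9% in the highest decile to 5.86% in the lowest, and C258A shares are 76.3% or higher throughout.

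Width added little beyond score. Shared WT peaks had a median width of 726 bp and private ones 587 bp, but within the fifth decile the medians were 648 and 655 bp. In the lowest decile both were 481 bp. The highest decile went the other way, with 906 bp for shared and 1009 bp for private peaks. Private C258A peaks had a median width of 433 bp, against 540 bp for shared ones.

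Equal list length removes the difference in the number of peaks. When the WT list was cut down to the 13299 peaks of highest score, 69.5% (68.7 to 70.3%) of them overlapped a C258A peak, and 70.5% (69.7 to 71.3%) of C258A peaks overlapped one of them. Of the 3920 C258A peaks left without a partner at this length, 3070 (78.3%) overlapped a WT peak of lower score. The share was somewhat higher for longer lists: it was 64.3% (61.3 to 67.2%) for the top 1000 of each, 67.6% for the top 4000 and 68.9% for the top 8000. The sites of the strongest peaks were nonetheless present in both lists. Of the 1000 strongest WT peaks, 99.6% overlapped some C258A peak, and of the 1000 strongest C258A peaks, 99.8% overlapped some WT peak. At the top of the lists, the disagreement was therefore in rank and not in whether a site was called.

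Pairs of other libraries show what agreement separate libraries reached at the same length. For the top 8000 peaks, parental DMSO shared 87.0% (86.2 to 87.7%) with the parental control siRNA list and 89.0% (88.3 to 89.6%) with parental PladB, a splicing inhibitor. The uninduced WT and C258A lists shared 73.4% (72.4 to 74.4%), and the induced lists 68.9% (67.8 to 69.9%). The induced pair had the lowest share at each of the 4 lengths at which all 4 pairs could be set side by side. The uninduced pair, in which the transgenes were not induced, lay between it and the parental pairs at each of these lengths. Equal length is not equal depth into a list. The top 8000 took nearly all of the 8575 uninduced WT peaks, but a much smaller part of the 31735 induced WT and 30557 parental DMSO peaks.

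**Figure D2:**
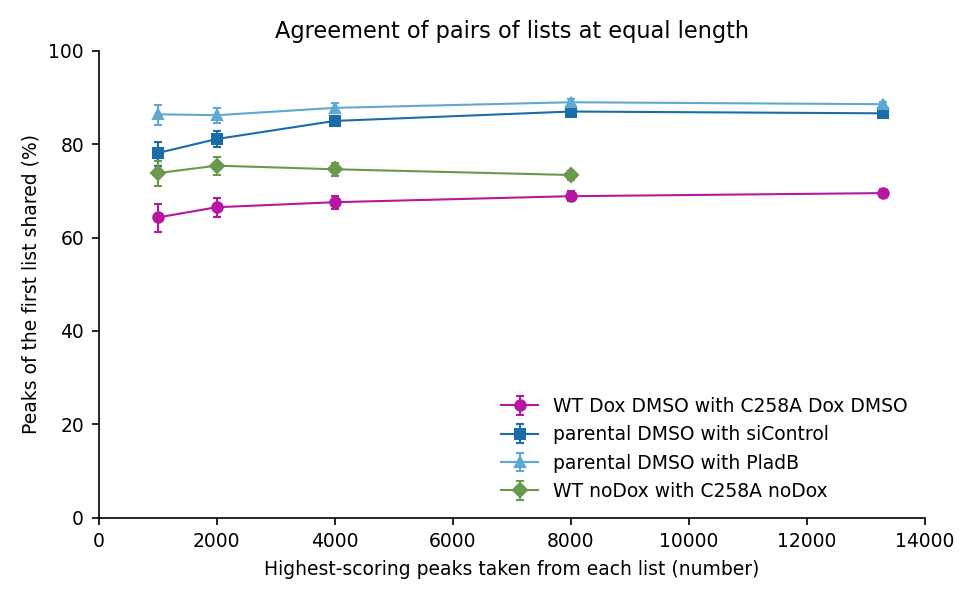
Share of peaks (%) of the first list that overlap a peak of the second, against the number of highest-scoring peaks taken from each list, with Wilson 95% intervals. The induced WT and C258A lists lie between 64.3% and 69.5%, below the uninduced pair, and both parental pairs lie highest at every length.

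The sites of both lists were then classed by whether they were FOXA1 sites before induction. A parental site is one that overlaps a parental DMSO peak. A new site overlaps neither that list nor either uninduced list. New sites made up 63.0% of the WT list and 58.3% (57.5 to 59.1%) of the C258A list. Parental sites made up 35.7% of WT and 40.4% of C258A peaks. The remainder lay at uninduced peaks alone. New sites are defined by these 3 lists: 1103 of the 20003 new WT sites (5.51%) were called in parental cells with control siRNA or PladB.

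Parental sites were shared more often than new ones. Of the 11317 WT peaks at parental sites, 46.3% (45.4 to 47.2%) had a C258A peak, against 34.6% (33.9 to 35.3%) of the 20003 at new sites and the background of 38.8% over all WT peaks. The share was 59.3% (58.0 to 60.6%) for the 5755 WT peaks called in the parental list and in both uninduced lists. Their median WT score was 309, against 175 at new sites. From the side of the C258A list, 98.3% of peaks at parental sites and 90.5% (89.8 to 91.1%) of those at new sites had a WT peak.

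Much of this gap went with score, and its direction depended on the decile. In the highest decile of the WT list, 97.6% (96.8 to 98.2%) of parental sites and 93.5% (92.0 to 94.7%) of new sites were shared, at median scores of 927 and 835. In the second decile the shares were 84.8% (82.9 to 86.6%) and 78.9% (77.0 to 80.8%). Around the fifth decile the classes did not separate, at 31.7% and 33.2%. In the ninth decile the order was the other way round, with 6.04% (4.62 to 7.85%) of parental and 10.4% (9.20 to 11.7%) of new sites shared. In the lowest decile the shares were 3.44% and 6.88%. Strong WT peaks at parental sites were thus called more often in the C258A library than new ones of the same decile, and weak ones less often.

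Among C258A peaks, in contrast, parental sites had the higher share in each of deciles 2 to 10. In the lowest decile of the C258A list, 91.2% (88.2 to 93.5%) of parental sites had a WT peak, against 76.3% (73.4 to 79.0%) of new sites. In the highest decile all 760 parental and all 537 new sites did.

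At equal length the classes stayed apart. Of the top WT peaks, 75.5% (74.4 to 76.6%) at parental and 64.7% (63.6 to 65.8%) at new sites had a C258A peak. Of C258A peaks, 83.2% (82.2 to 84.2%) at parental and 61.9% (60.9 to 63.0%) at new sites had a top WT peak. At that length 44.1% (43.3 to 45.0%) of the WT peaks were parental sites, against 40.4% (39.5 to 41.2%) of the C258A peaks. The order of the 2 lists was the reverse at the deposited lengths, where the WT share was 35.7%. Whether C258A cells held relatively more or fewer endogenous sites thus turned on list length.

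Score ranks within the one-to-one pairs showed the same tilt. Ranks are given as a percentage of the 12174 pairs, with 0 for the highest score. The 5165 pairs at parental sites had a median rank of 38.6 in the WT list and 46.2 in the C258A list. The 6857 pairs at new sites had a median rank of 58.7 in the WT list and 52.2 in the C258A list. The C258A library ranked 39.7% of parental pairs and 57.9% of new pairs higher than the WT library did. As a description across peaks, which are not independent, Spearman's correlation of the paired scores was 0.770 at parental and 0.579 at new sites. Each list's scores are relative to its own library, so these are differences in order within a list and not in occupancy.

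**Figure D3:**
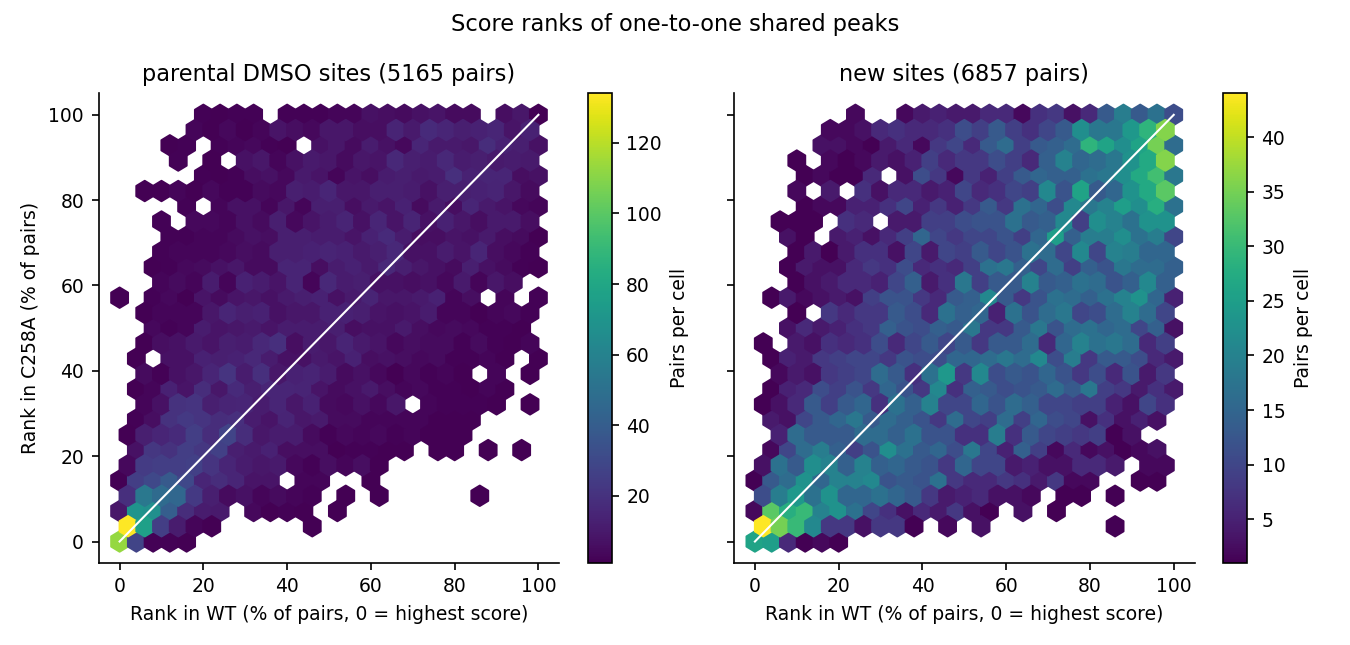
Score rank in the WT list (horizontal, % of pairs, 0 = highest score) against that in the C258A list (vertical), for one-to-one shared peaks at 5165 parental DMSO sites and 6857 new sites. Colour gives pairs per cell, and the white line marks equal rank. Parental pairs lie more above the line, so lower in the C258A order, and new pairs more below it.

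Sites from before induction were also followed from the reference lists. Of the 30557 parental DMSO peaks, 5186 were called in both induced lists, 5990 (19.6%) in WT alone, 88 (0.288%) in C258A alone and 19293 (63.1%) in neither. Their median parental scores ordered the first and last groups: 687 for peaks called in both and 177 for peaks called in neither. Peaks called in WT alone lay between, at 327. Of the 8575 uninduced WT peaks, 41.4% were called in both induced lists and 26.1% in neither.

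The uninduced C258A list is the reference from the same line. Of its 12752 peaks, 8324 (65.3%, 64.4 to 66.1%) were called in induced WT cells and 4490 (35.2%) in induced C258A cells. The peaks of the C258A line itself were therefore found more often in the induced list of the other line. At equal length the WT share was 37.7% (36.8 to 38.5%), so most of that gap went with list length. A total of 3909 uninduced C258A peaks were called in induced WT cells and not in induced C258A cells, and 75 the other way round.

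Sharing between the induced lists also differed with the line in which a site had been called before induction. The uninduced C258A list is the longer one, with 12752 peaks against 8575, so calls in 1 uninduced list alone are unlike sets. WT peaks at parental sites that the uninduced C258A library had called and the uninduced WT library had not were shared in 39.4% (37.4 to 41.5%) of 2148 cases. Where the uninduced WT library alone had called the site, 22.1% (18.0 to 26.7%) of 349 were shared. Within the upper 5 deciles of the WT list the shares were 63.6% (60.7 to 66.4%) and 47.3% (39.4 to 55.3%), at median WT scores of 351 and 313. In the lower 5 deciles the shares were 14.8% and 3.48%, at median WT scores of 127 and 123. The sets were thus not matched on score within these ranges. Sites called before induction in the C258A line alone were thus shared more often than those called in the WT line alone, in both score ranges. Over all WT peaks the share was 38.8%, close to the 39.4%, and over WT peaks at parental sites it was 46.3%. The first set was therefore not shared more often than WT peaks in general.

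The private WT peaks were looked up in the other lists. Of the 19417, 13082 (67.4%, 66.7 to 68.0%) were new sites, against 56.2% (55.3 to 57.1%) of shared WT peaks. They lay at parental DMSO sites in 31.3% and at uninduced C258A sites in 19.9% of cases, against 42.5% and 35.8% of shared WT peaks. Over all WT peaks these shares were 35.7% and 26.1%. In parental cells with siRNA against FOXA1, 61 (0.314%) of the private and 148 (1.20%) of the shared WT peaks were called, and 0.659% of all WT peaks. A total of 5371 private peaks (27.7%) were called in none of the 10 other lists. The same share over all WT peaks was not computed.

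Many private WT peaks could be called in the C258A line, in its WX-02-23 library. That library lists 20609 peaks and holds 55.0% of all WT peaks. It held 6038 (31.1%, 30.4 to 31.8%) of the private and 92.7% of the shared ones. The private share depended on which peaks were taken. It was 54.9% at equal length, where only the WT list was cut. With a score minimum of 150 in both lists it was 56.7%, and for the top 50% of both lists 66.0%. Both of these settings also cut the C258A list, so private then included WT peaks that overlapped a removed C258A peak. The 55.0% is for the whole WT list, and the share over all WT peaks was not computed at any of these settings. In the fourth decile of the WT list, the C258A library with WX-02-23 held 49.9% of private and 90.2% of shared peaks. The WT library with WX-02-23 holds 60.7% of all WT peaks, and 47.3% (46.6 to 48.0%) of the private and 81.9% of the shared ones. These libraries differ in compound as well as in line, so the values are not a repeat of the DMSO condition.

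With WX-02-23, the strongest private WT peaks were called more often in the WT line than in the C258A line. They had been chosen for lacking a peak in a C258A library, which by itself favours this order. The WT list with WX-02-23 is also the longer one, with 25849 peaks against 20609. In the highest decile, 130 WT peaks lacked a C258A partner. With WX-02-23, the WT library called 126 of them (96.9%, 92.4 to 98.8%) and the C258A library 97 (74.6%, 66.5 to 81.3%). Shared WT peaks, 3044 of the 3174 in that decile, were called at 99.0% and 99.6%. In the second decile, the same WX-02-23 libraries called 90.2% (87.5 to 92.4%) and 64.9% (60.9 to 68.7%) of private peaks, against 93.5% and 97.9% for shared ones. Their scores were lower than those of shared peaks in the highest decile, with medians of 708 and 901.

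At the deposited lengths, the private C258A peaks formed a small set of mostly new sites that ranked low in their list. Of the 850, 740 (87.1%, 84.6 to 89.1%) were new sites and 90 (10.6%, 8.69 to 12.8%) parental ones, against 40.4% parental sites over all C258A peaks. Their median rank in the C258A list was 10834 of 13299. At equal length, 3920 C258A peaks lacked a top WT peak, and 23.0% (21.7 to 24.3%) of these lay at parental sites. The 850 lay a median of 20.2 kb from the nearest WT peak, and 42 of them (4.94%) within 500 bp of one. Private WT peaks lay a median of 54.6 kb from the nearest C258A peak, in a list with fewer peaks.

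With WX-02-23, more of the private C258A peaks were called in the C258A line than in the WT line. They had been chosen for lacking a peak in a WT library, which by itself favours this order. The C258A library with WX-02-23 called 541 of them (63.6%, 60.4 to 66.8%), against 90.8% of all C258A peaks. The WT library with WX-02-23 called 248 (29.2%, 26.2 to 32.3%), against 78.4% of all C258A peaks. A total of 203 (23.9%) were called in no other list, and the same share over all C258A peaks was not computed. In parental cells, 10 of the 850 (1.18%) were called with siRNA against FOXA1, close to the 1.19% of all C258A peaks.

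**Figure D4:**
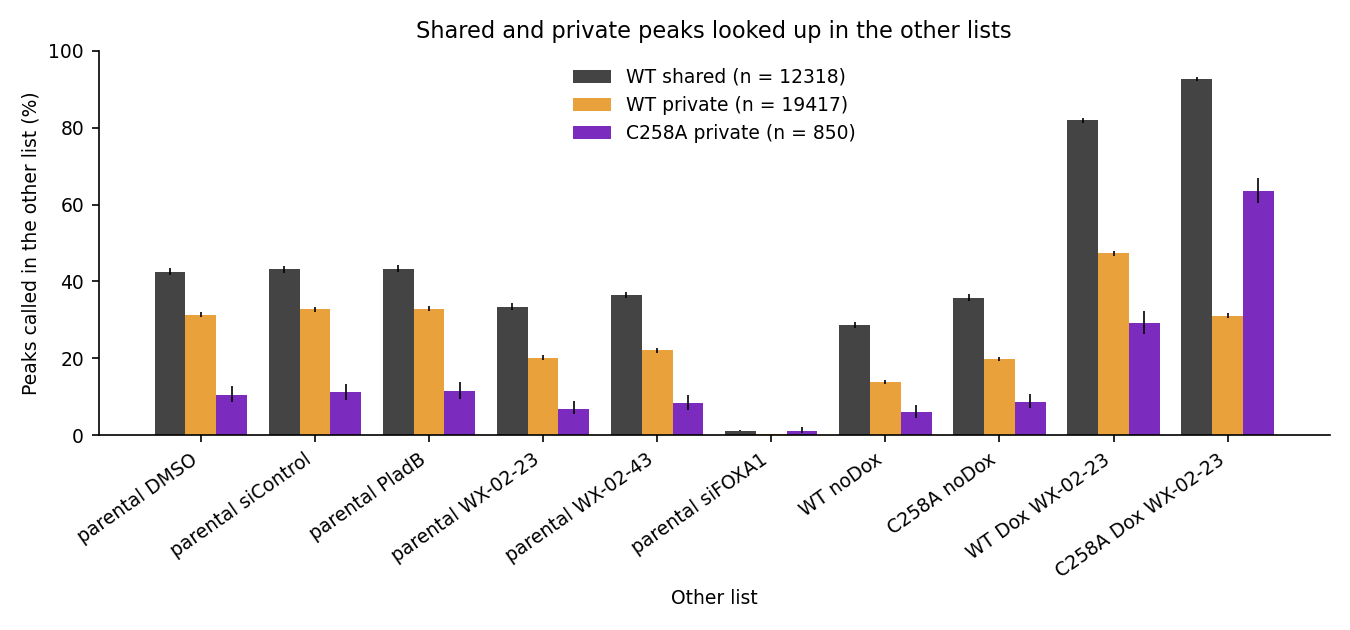
Share of peaks (%) called in each of 10 other lists, for 12318 shared WT, 19417 private WT and 850 private C258A peaks, with Wilson 95% intervals as error bars. Private C258A peaks are called at 10.6% in parental DMSO and at 63.6% in C258A cells with WX-02-23, whereas private WT peaks are called at 31.3% and 31.1%.

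Chromosomes differed in how much was shared. Over all WT peaks the shared share was 38.8%, and it ranged from 25.3% (20.1 to 31.4%) on chromosome 22 to 45.2% (42.8 to 47.6%) on chromosome 8. Low shares were also found on chromosome X (26.2%, 22.7 to 30.0%), chromosome 19 (27.0%, 21.6 to 33.2%), chromosome 17 (32.2%) and chromosome 15 (32.4%). Chromosome 7 was the next highest, at 43.3% (41.4 to 45.2%).

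Equal length kept some of these differences. At that length the shares were 50.5% (40.5 to 60.6%) on chromosome 22, 54.9% (44.1 to 65.2%) on chromosome 19 and 75.6% (72.3 to 78.6%) on chromosome 8, around 69.5% for all. Chromosome X reached 63.4% (55.8 to 70.4%) and chromosome 17 reached 67.7% (60.9 to 73.8%), so their intervals included the overall value. Chromosome 15 reached 63.7% (57.8 to 69.3%), just below it. In the upper 5 deciles of the WT list, chromosome 22 had 46.6% shared against 63.6% on the other chromosomes, at median scores of 354 and 342. On chromosome 8 these deciles had 70.0% against 63.1%, at median scores of 355 and 341. On chromosome X they had 52.8% (46.1 to 59.4%) against 63.6%, at a lower median score of 289 against 342. On chromosome 17 they had 60.4% (54.2 to 66.3%) against 63.5%. On chromosome 15 they had 56.8% (51.3 to 62.1%) against 63.6%, at median scores of 323 and 342. Chromosome 22 held 225 WT and 60 C258A peaks, and chromosome 19 held 222 and 64.

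Other pairs of libraries show whether the lines differed there too. The share of the C258A list on chromosome 22, divided by that of the WT list, was 0.636 with DMSO, 0.828 with WX-02-23 and 0.791 without induction. On chromosome 19 the ratios were 0.688, 0.679 and 0.923. On chromosome 8 they were 1.19, 1.10 and 1.03. On chromosome X they were 0.695, 0.989 and 1.27, which lie on both sides of 1, and the DMSO ratio was 0.982 at equal length. At that length the DMSO ratio was 0.659 on chromosome 22, 0.780 on chromosome 19 and 1.14 on chromosome 8. For the parental control siRNA and DMSO lists the ratio was 1.09 on chromosome 22, 1.04 on chromosome 19 and 0.991 on chromosome 8. On chromosome 15 it was 1.07. Copy number of the lines was not analysed here, and its part in these ratios was not tested.

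**Figure D5:**
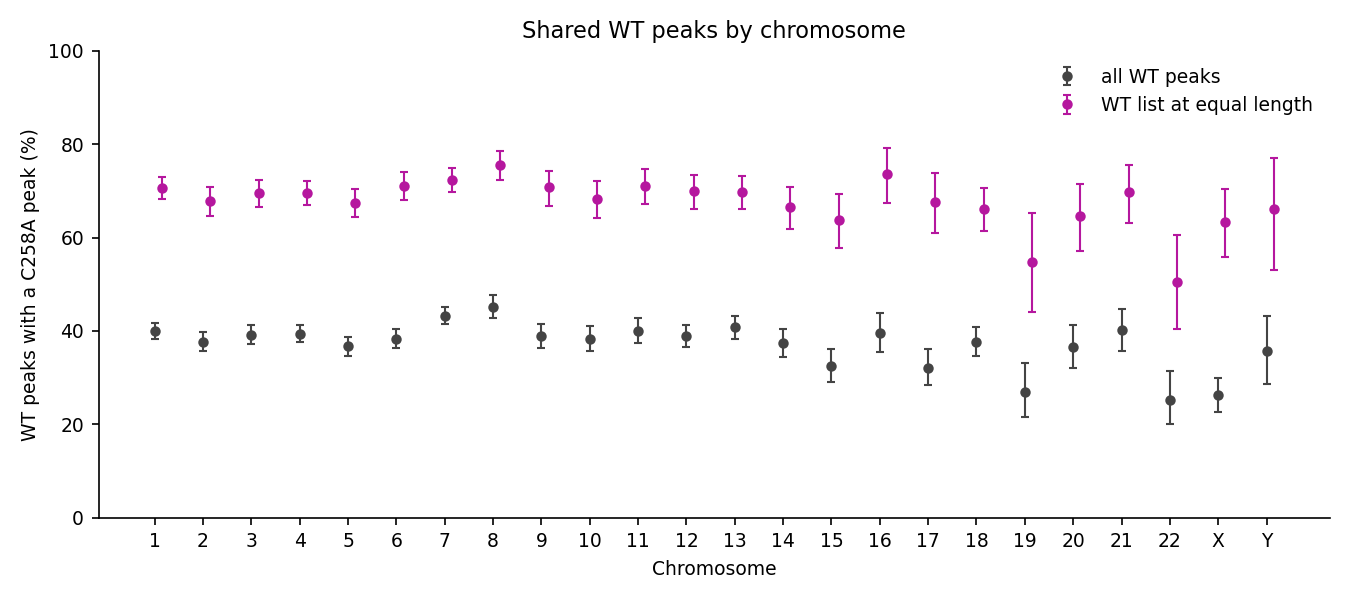
Share of WT peaks (%) with a C258A peak on each chromosome, with Wilson 95% intervals, for all WT peaks and for the 13299 with the highest scores. Chromosome 8 is highest in the first set at 45.2%, and chromosome 22 lowest in both, at 25.3% and 50.5%.

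Single peaks illustrate these classes, with coordinates in hg19 counted from 1. They were taken by score within 5 classes and serve as examples, not as evidence of how often a pattern occurs. Genes at these positions and their sequences were not analysed here.

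The strongest private WT peak at a new site was chr1:188515473-188516896, with a score of 1646 and rank 330 of 31735. The next were chr4:102109987-102110850, chr3:81640012-81641617 and chr5:89528705-89529678, with scores of 1122, 1081 and 1057. All 4 were called with WX-02-23 in both WT and C258A cells and in no parental or uninduced list. The C258A line could thus yield a peak at each of these positions in another library.

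Among private WT peaks at parental sites, the strongest was chr3:197704028-197705271, with a score of 1152 and rank 896. It was called in 9 of the 12 lists, including C258A cells without induction and with WX-02-23. The next, chr3:197829027-197832014, was 2988 bp wide, had a score of 1123, and was called in both uninduced lists but in no induced C258A list. The last of the 4 were chr6:76833541-76834455, with a score of 995, and chr13:94957038-94958342, with a score of 946. Both were also called in C258A cells with WX-02-23.

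Of the private C258A peaks at new sites, the strongest were chr15:20132176-20133116 with a score of 322 and rank 2356, and chr1:163682734-163683448 with a score of 314. They were followed by chr5:135143247-135143916 with 296 and chr4:81713508-81714180 with 286. All 4 were also called in C258A cells with WX-02-23, and the peak on chromosome 1 in WT cells with WX-02-23 as well.

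At parental sites the strongest private C258A peak was chr5:143749716-143750266, with a score of 198 and rank 5187. It was called in both uninduced lists and in 4 parental lists. The others were chr7:43658878-43659443 with a score of 173, chr5:109339263-109339827 with 159 and chr7:14756800-14757374 with 157. All 4 were called in C258A cells with WX-02-23, and the first on chromosome 7 also in WT cells with WX-02-23.

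Shared new sites included some of the strongest peaks of both lists. The first, chr1:245824429-245826352, ranked 7 in the WT list with a score of 3148 and 20 in the C258A list with a score of 1940. The second, chr3:46948328-46950108, ranked 10 and 18, and was called in parental cells with PladB, WX-02-23 and control siRNA as well. The third was chr22:28441849-28443170, with ranks 18 and 15. The last was chr4:180837100-180838143, with ranks 35 and 12. The last 3 had a WT score of exactly 3100, a value that 35 WT peaks shared, so their WT ranks were set by width.

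Of the 850 private C258A peaks, 2 lay in the highest decile of the C258A list and were singled out after their values were seen. One was chr6:58775966-58780191, 4226 bp wide, with a score of 1370 and rank 50. The other was chrY:58841423-58848479, 7057 bp wide, with a score of 741 and rank 372. Both overlapped a peak of the uninduced WT list and none of the parental DMSO or uninduced C258A lists. The peak on chromosome 6 was also called in C258A cells with WX-02-23. The peak on chromosome Y was also called in parental cells with WX-02-23 and with the stereoprobe WX-02-43. Both were much wider than the median of 760 bp for shared C258A peaks of that decile. No filter for repeat regions was applied here. Of the shared WT peaks in the highest decile of the WT list, 99.6% were called in the C258A library with WX-02-23. Among the 130 strongest private WT peaks, 28 (21.5%, 15.3 to 29.4%) were called in neither other library of the C258A line. This is a different measure from the 99.6%, and its value over all WT peaks of that decile was not computed. The 130 had also been chosen for lacking a peak in a C258A library. The strongest of the 28, likewise chosen after the fact, were chr3:20626690-20627489 with a score of 987, chr6:38395129-38396099 with 917 and chr3:65579672-65580681 with 910. Each was called in WT cells with DMSO and with WX-02-23 and in no other list.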

How the data were processed

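FOXA1 ChIP-seq peak lists of 12 libraries were used, and the 3 input libraries were not analysed here. Each deposited file has 5 columns without a header: chromosome, start, end, peak name and a score. The score is the authors' own value per peak, of undefined scale, and was used only to rank or filter peaks within a list, including 1 alternative with a minimum of 150 in each list. No score was below 90. Bowtie2 and hg19 are named in the submitters' processing notes. Peak names begin with MACS per the deposited files. The caller's version, thresholds and control are not given in the sources used here. Peaks were listed per library, not pooled.

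Overlaps used at least 1 bp and gave the same counts as bedtools 2.31.1 for both lists. They were also tested on simulated lists. Intervals are Wilson 95% intervals (scipy 1.17.1). Ties in score were ordered by width, then position. The depth of each library is unknown. Alternatives were equal length, reciprocal overlap, a gap, stricter scores, autosomes and another parental list. Peaks named by position are the 4 highest-scoring of each of 5 classes, or those with the lowest rank sum for shared new sites. Members, lists and comparisons were chosen with earlier results of these data known. Sequences were not used, since no genome of this build was at hand.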

Additional observations from a re-analysis of the deposited data

Results flagged for a closer look

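Differences between the C258A and the WT line had opposite signs with and without doxycycline for 4 measures at the deposited list lengths. Each rests on 1 library per condition, and the difference between the conditions was not tested. The number of peaks in the C258A list minus that in the WT list was -18436 with doxycycline and DMSO, and 4177 without doxycycline. The median peak width differed by -101 bp with doxycycline (533 and 634 bp) and by 119 bp without it (562 and 443 bp).

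The share of the list at parental DMSO sites differed by 4.70 percentage points with doxycycline (40.4% and 35.7%) and by -2.72 without it (92.8% and 95.5%). The first of these depended on list length: with the WT list reduced to 13299 peaks, 40.4% of C258A and 44.1% of WT peaks lay at parental sites, so the sign was then the same as without doxycycline. The share of the list on chromosome X differed by -0.532 percentage points with doxycycline (1.21% and 1.74%) and by 0.490 without it (2.27% and 1.78%). At equal length the induced lists had 1.21% and 1.23% of their peaks there, so this difference nearly vanished.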

How the results depend on the processing

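For 6 results, 39 alternative values were computed: 17 stayed within the 95% interval of the reported value and 22 moved. All 6 values from autosomes alone stayed, as did all 3 with parental sites taken from the control siRNA list. Equal length moved all 6: to 69.5% of WT and 70.5% of C258A peaks shared, 75.5% of WT peaks at parental and 64.7% at new sites shared, 23.0% of private C258A peaks at parental sites, and 54.9% of private WT peaks called in C258A cells with WX-02-23. A score minimum of 150 in both lists gave, without the fifth of these, 34.8%, 95.2%, 39.6%, 31.4% and 56.7%. The top 50% of both lists gave 93.1% of C258A peaks shared, 43.2% of WT peaks at parental sites shared, and 66.0% of private WT peaks called in C258A cells with WX-02-23. In both the score minimum and the top 50% setting, private included WT peaks that overlapped a removed C258A peak. A reciprocal overlap of 50% gave 36.2% of WT and 86.5% of C258A peaks shared, 43.3% at parental and 32.5% at new sites. A gap of up to 500 bp gave 39.9% of WT peaks shared, 47.4% at parental and 35.4% at new sites, and 31.8% of private WT peaks called in C258A cells with WX-02-23. Parental sites were shared more often than new sites under each of the 7 alternatives run on both. No paired analysis was possible because each group had 1 library. The unknown depth limits every share that depends on list length.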
